A study of Mus musculus with 17 samples.

Results

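The clustered protocadherins are 3 neighbouring gene families on chromosome 18, named alpha, beta and gamma, and their methylation was read at CCCGGG sites in mouse blood. Sites from 1000 bp before the transcription start to the end of the 14 alpha, 22 beta and 22 gamma genes listed were taken when at least 50 reads covered them in at least 13 of 17 mice. This left 4 of the 51 CCCGGG sites in these intervals, 2 of 20 in the alpha, 0 of 14 in the beta and 2 of 17 in the gamma cluster. The series holds 173449 sites, of which 18884 of 164896 autosomal sites had the same depth.

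DREAM (Digital Restriction Enzyme Analysis of Methylation) was run on whole blood of 17 C57BL/6 mice, an inbred strain. The 5 AL-young mice were fed ad libitum (AL) and aged 4 months, with 2 females and 3 males. The 7 AL-old mice had the same feeding and were 29 to 33 months old, with 5 females and 2 males. The 5 CR-old mice were under caloric restriction (CR) and 32 to 38 months old, with 2 females and 3 males. The enzyme SmaI cuts only unmethylated CCCGGG and XmaI then cuts the rest, so that the end of each read tells the state of its site. Whole blood is a mixture of cells, and a change in its makeup cannot be told apart from a change within a cell type.

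Clustered protocadherins are adhesion proteins of the cell surface, best known in neurons, where each cell shows its own combination of isoforms and so tells its own branches from those of other cells. In the alpha and gamma clusters every variable exon has its own promoter and is spliced to constant exons that the whole cluster shares, whereas the beta genes have no introns. Promoter choice depends on the binding of CTCF and cohesin and on DNA methylation, and the C-type isoforms Pcdhac1, Pcdhac2, Pcdhgc3, Pcdhgc4 and Pcdhgc5 are chosen in another way than the rest.

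Deposited reads per mouse ran from 6.41 to 51.6 M (megareads). Mice are called by group and number, and AL-young 30 had the highest total. Raw methylation is the methylated share of the reads at a site. The authors also deposited an adjusted value, in which the odds of methylation are multiplied by a correction factor per mouse that comes from spiked standards. This factor was 0.872 to 1.13 in 11 mice and 1.40 to 3.96 in CR-old 06 and the 5 females of the AL-old group, 6 mice in all. No AL-young mouse was among these 6, so the effect of age cannot be told apart from that of the correction or of sex within the AL-old females. Results are therefore given on raw counts and with the correction treated in other ways.

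Reads were spread very unevenly over the 3 clusters. The alpha sites held 62910 reads over all mice, of which 1758 fell outside the 2 sites kept. The gamma sites held 5646 reads, with 1452 outside the 2 sites kept. The beta sites held 189 reads in all, and no beta site had more than 41. The beta cluster thus gave no methylation value at the depth used, and nothing is said about its response to age or diet.

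Sites were covered where a second CCCGGG lay close by. Of the 51 sites, 7 had another CCCGGG 100 to 500 bp away, and 4 of these (57.1%) were kept against 0 of the other 44. Over all autosomal sites 47.7% of those with such a neighbour and 1.22% of those without it were kept. In the beta cluster 13 of 14 sites lay in a coding exon. At 11 of them the site lay 1958 to 2060 bp after the annotated start, which is the same stretch of related genes, and these held 0 to 29 reads over the 17 mice. The sources used here do not give how reads matching several of these related genes were counted. Of all 51 sites, 6 had no read in any mouse and 36 had fewer than 50 reads summed over mice.

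**Figure D1:**
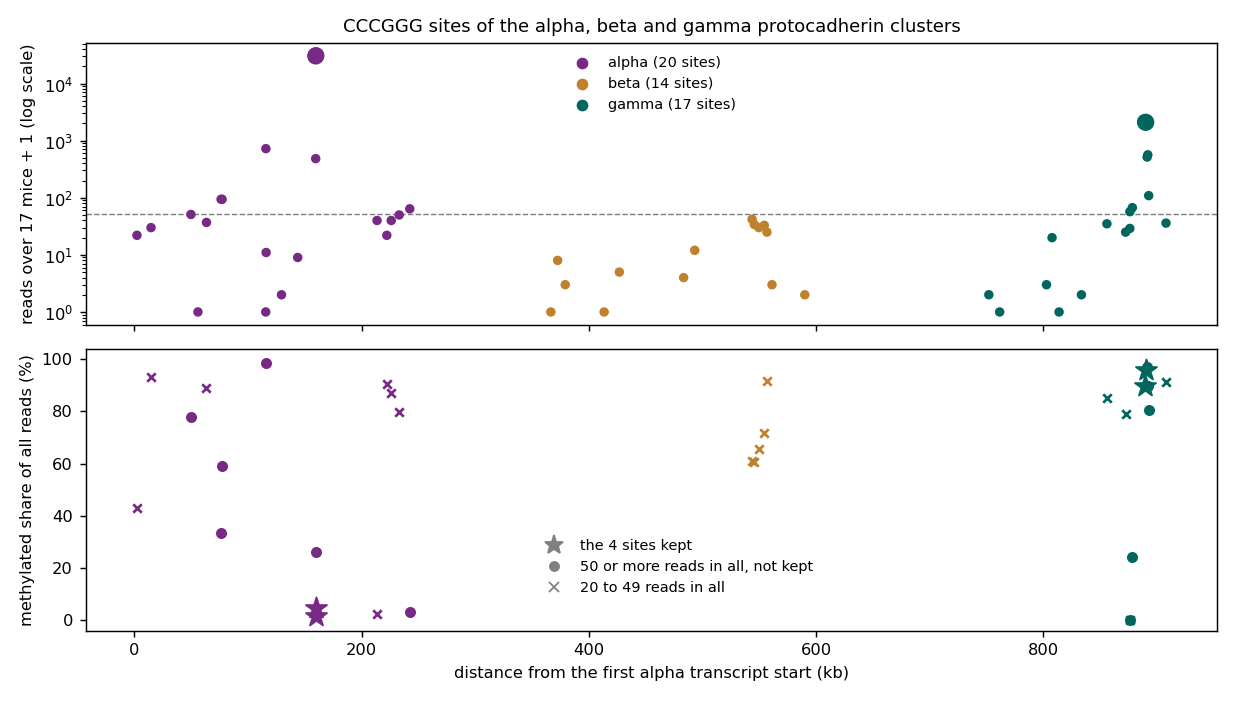
CCCGGG sites of the 3 clusters by distance from the first alpha transcript start in kb. The upper panel gives the reads summed over 17 mice plus 1 on a log scale, with the kept sites as large circles and a dashed line at 50 reads, and the lower panel gives the methylated share of the pooled reads. The 2 kept alpha sites lie under 5% and the 2 kept gamma sites near 90% and above, and no beta site reaches the line.

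The alpha sites kept were a pair before Pcdhac1, the first C-type exon of that cluster. They lie on chromosome 18 (mm9) at 37249574 to 37249579 and at 37249749 to 37249754, that is 213 and 38 bp upstream of the annotated start at 37249790. Both are in the same CpG island (CGI), a stretch dense in CpG, from 37249453 to 37250512, and no exon covers them. The GENCODE release used places this exon under the gene record Pcdha11, and the name Pcdhac1 comes from the matching start in RefSeq. The sites are 175 bp apart and form the ends of the same restriction fragments. Their read numbers per mouse, 734 to 7316 and 756 to 7408, differed by a factor of 0.975 to 1.07, so they are not independent measurements.

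At the upstream Pcdhac1 site raw methylation was low in all mice. AL-young mice had 1.32, 1.03, 1.09, 1.01 and 0.73%. In the AL-old group the lowest value was 0.54%, the median 2.09% and the highest 7.39%. CR-old mice had 2.11, 2.09, 0.48, 1.02 and 1.23%. The AL-young values were close together, 5 of 7 AL-old mice lay above all of them and 1 lay below, and the CR-old values fell within the AL-old range except for the lowest.

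At the downstream Pcdhac1 site, 38 bp from the start, methylation was higher and more scattered. AL-young mice had 6.18, 4.64, 2.58, 5.29 and 2.54%. In the AL-old group the lowest value was 0.99% (AL-old 10), the median 6.46% and the highest 16.37% (AL-old 14). CR-old mice had 5.88, 2.80, 3.97, 4.19 and 5.91%. All CR-old values were inside the AL-young range, while 4 AL-old mice lay above it and 2 below it.

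The first comparison asked whether the Pcdhac1 promoter gains methylation between 4 months and old age under free feeding. At the upstream site the AL-young mean was 1.04 ± 0.211% (SD, n = 5) and the AL-old mean 3.30 ± 2.76% (n = 7), a difference of 2.27 points. The log2 odds ratio was 1.3 (SE 0.684, 95% interval -0.04 to 2.64, edgeR adjusted p = 0.252). At the downstream site the means were 4.25 ± 1.63% and 7.23 ± 5.31%, a difference of 2.98 points, with a log2 odds ratio of 0.51 (SE 0.671, 95% interval -0.80 to 1.83, edgeR adjusted p = 0.710). Neither site passed the test, and both intervals include 0.

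The call at the upstream Pcdhac1 site depended on the correction factor. When the factor entered as an offset, the estimate rose to 2.00 on the log2 scale (SE 0.701, edgeR adjusted p = 0.0478), with adjusted AL-young and AL-old means of 1.07 ± 0.198% and 7.33 ± 8.43%. This was the only setting of 26 that called the site, and the others gave adjusted p up to 0.651. A covariate for high or low correction gave 0.83 (edgeR adjusted p = 0.651). Within the mice of low correction the AL-young mean was 1.04%, and the 2 AL-old mice had 1.13% (AL-old 25) and 3.26% (AL-old 27), which gave 0.98 on the log2 scale (edgeR adjusted p = 0.363). The direction was upwards in all 26 settings at both Pcdhac1 sites. Of these, 17 leave out 1 mouse each and the rest draw on the same mice, so the settings are not independent.

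Diet was compared between CR-old and AL-old mice at the same promoter. CR-old means were 1.39 ± 0.707% and 4.55 ± 1.34% at the upstream and downstream Pcdhac1 sites (n = 5), with differences from the AL-old means of -1.92 and -2.68 points. The log2 odds ratios were -0.97 (SE 0.691, edgeR adjusted p = 0.537) and -0.37 (SE 0.668, edgeR adjusted p = 0.882). Against AL-young mice CR-old means were 0.350 and 0.304 points higher, with log2 odds ratios of 0.33 (SE 0.734, edgeR adjusted p = 0.980) and 0.14 (SE 0.702, edgeR adjusted p = 1). Under the offset the upstream estimate against AL-old mice was -1.55 (95% interval -2.95 to -0.16, edgeR adjusted p = 0.178). Downstream it was -1.01 (edgeR adjusted p = 0.364). No contrast with CR-old mice passed the test at Pcdhac1 under any setting. The same CR-old mice enter both of these contrasts, so the contrasts are not independent.

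**Figure D2:**
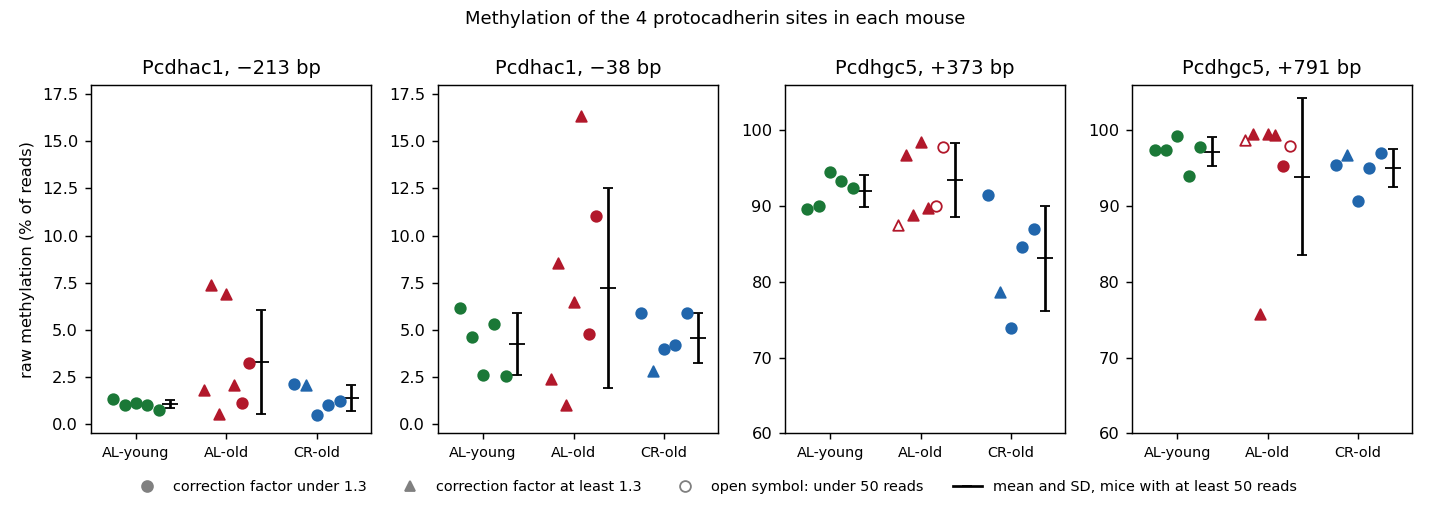
Raw methylation in percent of reads at the 4 protocadherin sites for each of 17 mice, grouped as AL-young, AL-old and CR-old, with triangles for a correction factor of at least 1.3 and open symbols for under 50 reads. Bars give the mean and SD over mice with at least 50 reads, and the percent scale of the Pcdhgc5 panels starts at 60. AL-old mice scatter most at Pcdhac1, and 4 of 5 CR-old mice lie lowest at Pcdhgc5 +373 bp.

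The gamma sites kept were a pair inside the first coding exon of Pcdhgc5, the last C-type exon before the constant exons of the cluster. They lie on chromosome 18 (mm9) at 37979678 to 37979683 and at 37980096 to 37980101, which is 373 and 791 bp after the annotated start at 37979308. A longer transcript of the same exon starts at 37979200. Neither site is in a CGI. The sites are 418 bp apart and are again ends of the same fragments. They had 2105 and 2089 reads over the 17 mice, so single values are much less precise than at Pcdhac1, where 30220 and 30932 reads were counted. AL-old 08 and AL-old 27 had fewer than 50 reads at both sites and AL-old 25 at the first site. These values were left out of the means and ranges, though their reads entered the test.

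At Pcdhgc5 +373 bp methylation was high in AL mice and lower in most CR-old mice. AL-young mice had 89.62, 90, 94.44, 93.37 and 92.33%. The 4 AL-old mice with enough reads, AL-old 09, 10, 13 and 14, had 96.79, 88.85, 98.40 and 89.76%. CR-old mice 02, 06, 19, 20 and 22 had 91.50, 78.65, 73.85, 84.59 and 86.98%. The lowest value, in CR-old 19, came from 80 methylated of 108 reads (95% Wilson interval 65.1 to 81.4%). Thus 4 of 5 CR-old mice lay below all AL-young and all of these AL-old mice, and CR-old 02 lay among them.

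At Pcdhgc5 +791 bp nearly all reads were methylated. AL-young mice had 97.35, 97.45, 99.22, 94.00 and 97.76%. The 5 AL-old mice with enough reads, AL-old 09, 10, 13, 14 and 25, had 99.55, 75.70, 99.46, 99.41 and 95.28%. Of these mice, AL-young 28 and AL-old 09, 13 and 14 had only methylated reads. CR-old mice had 95.45, 96.80, 90.69, 95.08 and 96.99%. AL-old 10 stood apart with 107 methylated of 141 reads (95% Wilson interval 68.2 to 82.2%), and the groups otherwise overlapped.

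With age, the Pcdhgc5 sites showed no difference beyond the spread between mice. At +373 bp the AL-young mean was 92.0 ± 2.10% (n = 5) and the AL-old mean 93.5 ± 4.85% (n = 4), and the estimate was 0.36 on the log2 scale (SE 0.693, edgeR adjusted p = 0.849). At +791 bp they were 97.2 ± 1.92% (n = 5) and 93.9 ± 10.3% (n = 5). The ratio there was 0.28 (SE 0.813, edgeR adjusted p = 0.935), opposite in sign to the difference of -3.28 points. Without AL-old 10 the AL-old mean was 98.4% and the log2 odds ratio 1.91 (edgeR adjusted p = 0.261), and the difference in means turned to 1.27 points.

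Diet showed its largest difference at Pcdhgc5 +373 bp. The CR-old mean was 83.1 ± 6.95% (n = 5), with differences of -10.3 points from AL-old and -8.84 points from AL-young mice. The log2 odds ratio against AL-old mice was -1.54 (SE 0.703, 95% interval -2.92 to -0.17), which had an edgeR unadjusted p = 0.0311 and adjusted p = 0.247, short of the threshold. Against AL-young mice it was -1.19 (SE 0.727, edgeR adjusted p = 0.724). When both groups alone entered that fit, adjusted p was 0.0797 with the same direction.

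Whether Pcdhgc5 +373 bp passed the threshold also differed between ways of treating the correction. As an offset, the factor moved the diet estimate to -2.18 (edgeR adjusted p = 0.0422), and limma on adjusted methylation gave -2.72 (adjusted p = 0.0274). These 2 of 25 settings called the site as lower in CR-old mice. With the offset 1.19% of all sites were called higher and 6.87% lower in CR-old than AL-old mice. With a covariate for high or low correction the estimate was -1.79 (95% interval -3.40 to -0.19, edgeR adjusted p = 0.256), and among the low-correction mice it was -1.51 (edgeR adjusted p = 0.343), both close in size to the -1.54 on raw counts. In that last set no AL-old mouse had 50 reads at the site, and the 4 CR-old mice had a mean of 84.2 ± 7.49%. The AL-old side of that estimate was AL-old 25 with 40 of 44 reads methylated and AL-old 27 with 21 of 21. All 4 AL-old mice in the mean were high-correction females, so diet and correction cannot be told apart at this site.

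At Pcdhgc5 +791 bp CR-old and AL-old mice did not separate. The CR-old mean was 95.002 ± 2.55% (n = 5), and the log2 odds ratio was -1.21 against AL-old (SE 0.918, edgeR adjusted p = 0.568) and -0.93 against AL-young mice (SE 0.891, edgeR adjusted p = 0.805). Without AL-old 10 the former became -2.84 (edgeR adjusted p = 0.0900). In points the difference of CR-old from AL-old was -10.3 at +373 bp and 1.12 at +791 bp, and the difference between both sites was not tested.

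**Figure D3:**
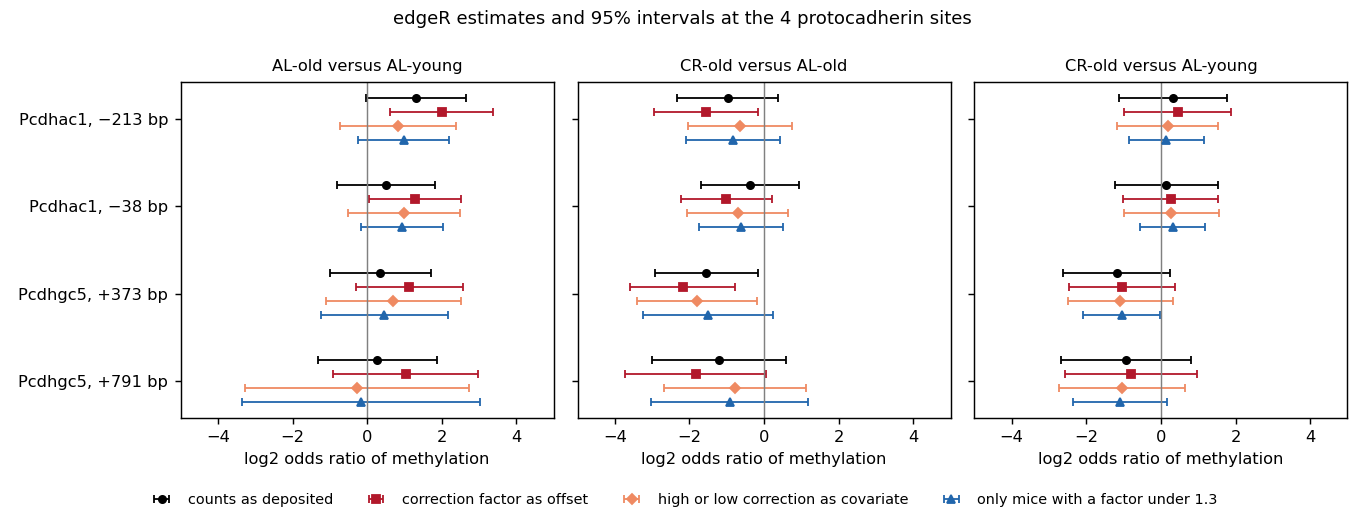
Log2 odds ratios of methylation with 95% intervals from edgeR at the 4 protocadherin sites, in a panel for each contrast, under 4 ways of handling the correction factor marked by colour and symbol. Values above 0 mean higher methylation in the group named first, and most intervals include 0. With age, both Pcdhac1 intervals lie above 0 under the offset (2.00 and 1.27). For CR-old against AL-old mice Pcdhgc5 +373 bp lies below 0 on raw counts, with the offset and with the covariate (-1.54, -2.18 and -1.79). The upstream Pcdhac1 interval does so with the offset (-1.55). For CR-old against AL-young mice Pcdhgc5 +373 bp lies below 0 in low-correction mice (-1.05).

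Counted together, 0 of the 4 protocadherin sites gained and 0 lost methylation from AL-young to AL-old by edgeR, where 3.96 and 6.01% of all 18884 sites did. None was called higher or lower in CR-old than AL-old mice, against 1.58 and 1.76% of all sites. Between CR-old and AL-young mice 0 of 4 were called in either direction, and 0% of all sites. At an unadjusted p under 0.05 edgeR gave 0 sites for age, 1 for CR-old against AL-old and 0 for CR-old against AL-young, where 22.4, 15.8 and 6.83% of all sites passed. Limma called 0 sites for age, 1 as lower in CR-old than AL-old mice and 0 for CR-old against AL-young. Over all sites limma called 8.0% as gained and 3.48% as lost with age, 1.11% as higher and 6.61% as lower in CR-old than AL-old mice, and 0.0053% in each direction for CR-old against AL-young. For CR-old against AL-young the 0% of all sites came from the edgeR fit of all groups. With only CR-old and AL-young mice in the fit, 159 of 18884 sites were called higher and 1193 lower in CR-old mice. Among low-correction mice 56 were higher and 381 lower. In both settings 0 of the 4 protocadherin sites were called. With 4 sites on 2 fragments, a count of 0 beside these shares is not a result about the protocadherins.

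The thresholds that the study sets for age-related sites gave the same count. They ask for a Spearman correlation of 0.5 or more in size between methylation and age, together with an empirical p under 0.05 and a mean from 1% upwards, and were applied here to the 12 AL mice and the 50-read rule, where the study had more AL mice and a higher minimum of reads. They were met by 0 of the 4 protocadherin sites, against 14.9% of 10499 sites for gain and 6.75% for loss. The smallest empirical permutation p among the 4 was 0.222, at the downstream Pcdhac1 site over 12 mice.

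The Pcdhac1 sites were then set beside sites of their own kind. Of the 8488 sites in promoter CGIs with an AL-young mean under 5%, 5.14% gained methylation in AL-old mice and 0.118% lost it, and the median difference was 0.030 points. In CR-old mice 0.0236% of the class were called higher and 1.7% lower than in AL-old mice, and neither Pcdhac1 site was. The upstream and downstream Pcdhac1 sites had differences of 2.27 and 2.98 points, larger than 89.4 and 90.8% of that class. Their diet differences, CR-old minus AL-old, were larger than 10.9 and 9.24% of it. The AL-old mean enters the age and diet differences with opposite sign, so the ranks are not independent. The Pcdhac1 sites thus lay in the upper part of their class by difference with age, without passing the test.

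Among the 3407 sites outside CGIs with an AL-young mean over 90%, 14.1% lost methylation in AL-old mice and 0.205% gained it, with a median of -3.19 points. In CR-old mice 2.11% of the class were called higher and 1.35% lower than in AL-old mice, and neither Pcdhgc5 site was. Pcdhgc5 +373 bp, at 1.498 points, lay above 93.9% of that class, and Pcdhgc5 +791 bp, at -3.28 points, above 49.5% of it. For diet the median of the class was 0.476 points, and Pcdhgc5 +373 bp was lower than nearly all, with 0.939% of the class below its -10.3 points. Pcdhgc5 +791 bp was in the middle with 55.0% below it. The differences at Pcdhgc5 +373 bp were thus opposite in sign to the class medians, with the one for age within the spread between mice. They share the AL-old mean with opposite sign, so they are not independent. This site had 2105 reads over all mice, where the class median was 6352, and its AL-old mean came from 4 mice. Only 4.94% of all kept sites had fewer reads, and how depth bears on its rank was not tested.

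The SD between mice was larger in the AL-old than the AL-young group at all 4 sites. At Pcdhgc5 +791 bp the size of this difference rested on AL-old 10. In AL-young against AL-old mice, SDs were 0.211 and 2.76 points at the upstream Pcdhac1 site and 1.63 and 5.31 points at the downstream one. At Pcdhgc5 they were 2.10 and 4.85 points at +373 bp, and 1.92 and 10.3 points at +791 bp, where the AL-old SD was 2.10 points without AL-old 10. Over all 18884 sites 75.1% had the larger SD in AL-old mice. In CR-old mice the SDs were 0.707 and 1.34 points at Pcdhac1 and 6.95 and 2.55 points at Pcdhgc5, so that CR-old mice were the most scattered group at +373 bp.

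Both ends of each fragment could be compared within a mouse. Before Pcdhac1 the site nearer to the start was more methylated in 16 of 17 mice, by 3.49 ± 3.47 points (SD), with the exception of AL-old 13. Inside Pcdhgc5 the site farther into the exon was more methylated in 13 of 14 mice with 50 reads at both, by 6.13 ± 7.63 points, with the exception of AL-old 10. By group that gap in Pcdhgc5 was 5.20 ± 2.85 points in AL-young mice (n = 5), 0.0800 ± 9.57 points in AL-old mice (n = 4, from -13.15 to 9.65) and 11.9 ± 5.75 points in CR-old mice (n = 5). On the log2 odds scale, which the tests use, the means of this gap were 1.82 ± 1.01, 1.84 ± 2.40 and 1.97 ± 0.758, in the same order. At +791 bp AL-old 09, 13 and 14 had only methylated reads (111 of 111, 91 of 91 and 84 of 84). So had AL-young 28 (63 of 63). Without an unmethylated read the size of the odds depends on depth, so these means cannot tell whether the groups were alike. Since both ends were counted in nearly equal numbers of reads, the gap is one between sites 175 or 418 bp apart. It was noticed in these data and is given as a description.

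Averaged over the sites of a cluster, alpha methylation was 2.64 ± 0.893, 5.27 ± 3.27 and 2.97 ± 0.771% in the AL-young, AL-old and CR-old groups. The difference of AL-old from AL-young was 2.62 points and that of CR-old from AL-old -2.30 points. In adjusted values these became 6.93 and -6.31 points. For the gamma cluster the mean over both sites of the group differences was -0.889 points for age and -4.61 points for diet. These averages describe a fragment each and have no test.

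Sites below the depth rule gave a coarse picture of the rest of the clusters, from reads pooled over mice, in which no comparison was made. Beside the 2 kept Pcdhac1 sites, 5 sites lay within 1000 bp before an annotated start, of which 2 had at least 50 reads in all. One of them, 23 bp before the C-type exon Pcdhgc3, had 0 methylated of 56 reads, which allows a share of up to 5.36%. The other lay 242 bp before Pcdhac1 and 29 bp from the first kept site. It had 126 of 483 reads methylated (26.1%), or 56 of 409 (13.7%) without AL-old 13. The first kept site had 30220 reads, so the shares at both may come from different molecules, which was not tested. With fewer reads, a site 75 bp before Pcdhac2 had 1 of 39 (2.56%, Wilson interval 0.454 to 13.2%). A site 47 bp before Pcdhgc3 had 0 of 28 reads methylated. By contrast, a site 392 bp before Pcdhb17 had 23 of 32 (71.9%, Wilson interval 54.6 to 84.4%).

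Coding exons differed from each other. Beside the 2 kept Pcdhgc5 sites, 5 coding exon sites had at least 50 reads pooled, and the 2 of these above 70% were also in the Pcdhgc5 exon. There a site 1915 bp after the start had 499 of 515 reads methylated (96.9%) and one at 2511 bp 506 of 563 (89.9%). The Pcdha10 exon was intermediate, with 31 of 93 reads (33.3%) at 1285 bp and 55 of 93 (59.1%) at 2202 bp, and so was Pcdhgc3 at 2158 bp with 16 of 66 (24.2%). A site between the starts of Pcdha12 and Pcdhac1, at 37205715, had 713 of 723 reads (98.6%) though it lies in a short CGI of 267 bp. A site downstream of the Pcdhac2 start, at 37332307 and in no exon, had 2 of 63 (3.17%, Wilson interval 0.875 to 10.9%). PCR copies were not marked, so these intervals cover counting error only.

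Related adhesion genes elsewhere were read by the same interval rule. Non-clustered protocadherins, single genes of the same superfamily, had 10 of 119 sites kept. These lay close together within each of Pcdh7, Pcdh8, Pcdh15 and Pcdh17, 9 of them in CGIs, so they are not independent. Of the 10 sites, 2 gained and 1 lost methylation with age. Both gains were in the CGI of Pcdh15, a component of hair cell tip links. At chromosome 10, 72562711 to 72562716, methylation went from 1.70 ± 0.506% at 4 months to 19.5 ± 17.6% in the AL-old group (log2 odds ratio 3.16, edgeR adjusted p = 0.00344). The loss was at Pcdh7, from 40.2 ± 2.71% to 22.7 ± 28.9% (edgeR adjusted p = 0.0479). With the correction offset 7 of these 10 sites gained and 0 lost, and in low-correction mice 5 gained and 0 lost. Over all sites 3.96% gained and 6.01% lost on raw counts. These settings also moved those calls, to 7.62% gained and 3.31% lost with the offset and 8.77 and 1.72% in low-correction mice.

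Atypical cadherins, the large Fat, Dachsous and Celsr proteins of planar polarity, had 13 sites kept of 88, and 0 were called for age by edgeR. With the offset or in low-correction mice 1 of them gained. Classical and other cadherins had 51 sites kept of 408, with 7 gained and 2 lost. Over all 18884 sites 3.96% gained and 6.01% lost, or 7.62 and 3.31% with the offset and 8.77 and 1.72% in low-correction mice. The gains were 5 sites of Cdh4 and 2 of Cdh2, which encode R- and N-cadherin. The Cdh4 sites lay together in its promoter CGI, from 179177222 to 179178304 on chromosome 2. The losses were at Cdh23, the partner of Pcdh15 in tip links. With the offset 12 cadherin sites gained and 1 lost, and in low-correction mice 11 gained and 0 lost, so that neither Cdh23 loss was called there. Genes beside the clusters had 0 of 13 sites kept. Regulators of the clusters had 31 of 82 sites kept, with 0 gained and 3 lost, namely 2 sites of the DNA methyltransferase gene Dnmt3a and 1 of Wiz. With the offset 0 regulator sites were called, and in low-correction mice 2 were lost, of which 1 of Dnmt3a was among these 3. The median differences with age were 4.54 points over the non-clustered protocadherins, 0.0386 over atypical cadherins, 0.222 over cadherins and -0.0137 over regulators, against -0.0146 over all sites. The median over the 4 clustered protocadherin sites was 1.88 points.

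**Figure D4:**
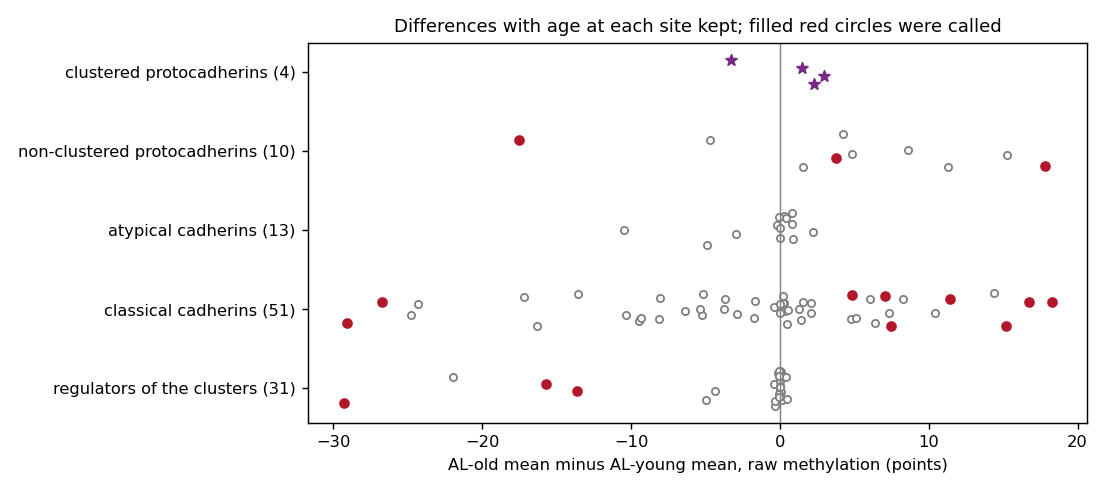
Difference of AL-old and AL-young means of raw methylation, in points, at each kept site of the clustered protocadherins (stars) and of 4 other gene lists (circles), with the number of sites in parentheses and filled circles for sites called by edgeR. The 4 clustered protocadherin sites lie between -3.28 and 2.98 points, and called sites appear in 3 of the other lists.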

How the data were processed

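DNA methylation was measured by DREAM in whole blood of 17 mice. The authors counted methylated and unmethylated reads at each CCCGGG site of mm9 and deposited these counts with raw and adjusted methylation in percent, 1 table per mouse. The submitters' processing notes also name Bowtie2, SAMtools and mm10, without role or version. Raw percent equalled 100 times (methylated + 0.5) / (all reads + 1). Libraries came from gel slices, so that short fragments were favoured, and 18 PCR cycles were run without molecular identifiers.

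Genes came from GENCODE vM1 (NCBIM37, the assembly also called mm9), and CpG islands were called from 200 bp, 50% GC and a CpG observed/expected ratio of 0.6. Promoters span 1000 bp upstream and 500 bp downstream of a start. Distances run from the CpG of a site to the annotated start. Groups came from the labels. Values from fewer than 50 reads were left out of means, which limits precision at Pcdhgc5. Methylated and unmethylated counts of 18884 autosomal sites entered edgeR 4.0.16 (R 4.3.3) and its quasi-likelihood F test, with a coefficient per mouse and 1 dispersion. A site was called at a Benjamini-Hochberg adjusted p under 0.05 over all sites and raw means at least 2 points apart. limma 3.58.1 on log2 odds, coverage minimums of 20 and 100 reads, the correction factor (high from 1.3) as offset or covariate, sex, fits with fewer groups and leaving out each mouse were alternatives. The Spearman rule used 1000 shuffles, two-sided. Other steps used Python 3.11.15, pandas 2.3.3, scipy 1.17.1 and matplotlib 3.10.9, and the fits were tested on simulated counts. The simulation gave all groups the same spread setting, so it does not show how the test behaves with the larger AL-old scatter seen here.

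The genes and the comparison lists were chosen with earlier results of these data known. Named sites were the kept sites of C-type exons, which are all 4, and called sites of the comparison lists. Each sample is 1 mouse.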

Additional observations from a re-analysis of the deposited data

Results flagged for a closer look

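At Pcdhgc5 +791 bp the raw methylation of AL-old 10, 75.7%, stood far from the other 4 AL-old mice with at least 50 reads, which had 95.28 to 99.55%. The gap of this mouse to its nearest neighbour was 0.821 of the range of the group. Of the 12 groups of values examined in this way 1 stood out, and chance marks about 1 in 20 such groups. The value came from 107 methylated of 141 reads, and its adjusted value was 81.92%. AL-old 10 also had the lowest value among AL-old mice with enough reads at the other 3 protocadherin sites, with 0.54 and 0.99% at Pcdhac1 and 88.85% at Pcdhgc5 +373 bp. The correction factor of AL-old 10 was 1.45, and whether correction, depth or sex has a part in these values was not tested.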

How the results depend on the processing

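No paired analysis was possible because the groups share no replicate numbers. Counts of called protocadherin sites stayed at 0 in every setting run, leaving out each mouse included (0 to 0), apart from 3. With the correction factor as offset 1 site gained with age and 1 was lower in CR-old than AL-old mice, and limma also gave 1 lower in CR-old mice. The offset called 7.62% of all sites as gained and 6.87% as lower in CR-old mice, and limma 6.61% as lower. The alpha mean difference moved with adjusted values to 6.93 points for age and -6.31 points for diet. The gamma mean difference for age changed sign in adjusted values, from -0.889 to 0.744 points, within the spread of mice. For diet it was -0.728 points among low-correction mice, where only Pcdhgc5 +791 bp gave a value.

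Log2 odds ratios that changed sign were small. For age at Pcdhgc5 +791 bp these were -0.27 with high or low correction as covariate, -0.17 in low-correction mice, -0.04 without AL-young 29, -0.17 without AL-old 09, -0.19 without AL-old 13 and -0.17 without AL-old 14. For CR-old against AL-young at the downstream Pcdhac1 site they were -0.02 without AL-young 28 and -0.0299 without AL-young 30. Leaving out each mouse gave ranges of -0.19 to 1.91 for the former and -0.0299 to 0.314 for the latter. The cause was not tested.

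At 100 reads only the 2 Pcdhac1 sites remained, so the gamma cluster has no value there, and at 20 reads the same 4 sites were kept. The beta cluster has no value in any setting. Depth limits the Pcdhgc5 values, with 21 to 138 reads per AL-old mouse at +373 bp, where 3 of 7 values were left out, and 23 to 141 at +791 bp, where 2 were.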

Other observations

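Another CCCGGG before Pcdhac1, at 37249545 and 29 bp from the upstream kept site, had too few reads for the depth rule but was read in all 17 mice. It had 5 methylated of 71 reads in AL-young mice, 114 of 356 in AL-old mice and 7 of 56 in CR-old mice. In AL-old 13 there were 70 methylated of 74 reads (94.6%, Wilson interval 86.9 to 97.9%), while the site 29 bp away read 6.90% in the same mouse. AL-old 08 had 20 of 50 (40%), AL-old 09 had 21 of 181 (11.6%) and AL-old 10 had 1 of 27 (3.70%).

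The 6 mice with high correction gave 385 of the 483 reads at this site (79.7%). Per 1000 reads at the neighbouring site they had 10.8 to 91.4 reads, against 1.46 to 8.51 in the other 11 mice, so that these ranges did not overlap. Of the reads, 118 of 385 were methylated in the former and 8 of 98 in the latter. Age, sex and correction move together at this site, and their parts were not tested. Other sites below the depth rule were not compared, and many had a lower share in AL-old than AL-young mice. In the Pcdha10 exon at 2202 bp, 30 of 39 reads were methylated in AL-young and 15 of 35 in AL-old mice. Some were higher in AL-old mice, as Pcdhgc3 at 2158 bp with 5 of 27 and 8 of 27.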
